A study of Homo sapiens with 120 samples.

Results

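The genes described here encode 10 proteins of macroautophagy: the cargo receptors SQSTM1 (p62) and NBR1, the Atg8-family proteins MAP1LC3B, GABARAP and GABARAPL1, the phosphoinositide effector WIPI1, the initiating kinase ULK1, and the conjugation proteins ATG5, ATG12 and ATG16L1. They were chosen by name, each matched exactly 1 row among the 57665 genes of the deposited tables, and all 10 were among the 26998 genes abundant enough to be tested. RNA was sequenced from U2OS cells, a human osteosarcoma line, in 120 wells that make up 40 groups of 3. One form of the line, Dmr-PERK, stably carries a construct made, per the series text, of the kinase domain of mouse PERK joined to DmrB, a domain that the ligand AP20187 (the dimerizer) brings together in pairs, and the other form, Parental, lacks it. Dmr-PERK wells received 195 pM dimerizer, thapsigargin at 100 nM or arsenite at 0.05 mM for 2, 4, 8, 16 or 24 h, and were compared with untreated Dmr-PERK wells collected at 0, 4, 8, 16 and 24 h. Parental wells received the same agents at the same doses and times and were compared with untreated Parental wells of the same 5 times. Thapsigargin empties the calcium store of the endoplasmic reticulum (ER) by inhibiting its pump, and arsenite binds thiol groups of proteins and brings about oxidative stress. Per the series text the doses were chosen for similar phosphorylation of eIF2α, and Parental cells served as the control for effects of the dimerizer itself. Whether Dmr-PERK is 1 clone, and whether the 3 wells of a group were separate cultures, is not stated in any source used here, and the p-values rest on differences among wells that may be no more than technical repeats.

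Macroautophagy encloses cytoplasm in a double membrane and delivers it to the lysosome. The ULK1 kinase complex starts the process, a phosphoinositide made at the growing membrane recruits WIPI proteins, and the ATG12, ATG5 and ATG16L1 complex attaches Atg8 proteins to lipid there. SQSTM1 and NBR1 bind ubiquitinated cargo and Atg8 proteins at the same time and are themselves degraded with the cargo, so that cells that run autophagy must replace them. PERK and the other eIF2α kinases start the integrated stress response, in which the transcription factors ATF4 and CHOP (encoded by DDIT3) are induced. Work in mouse fibroblasts has placed several autophagy genes among the genes that ATF4 and CHOP act on.

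Sequence just upstream of the annotated start is shown for the members with the highest rise in Dmr-PERK cells with dimerizer (MAP1LC3B), with arsenite (GABARAPL1) and with thapsigargin (WIPI1). RefSeq start sites on GRCh38.p14 were matched by symbol for all 10 members, with 14 entries in all, and the 250 bases before each start were searched on both strands for 6 motifs. The windows printed are chr16:87392086-87392335 on the plus strand, chr12:10212627-10212876 on the plus strand and chr17:68457497-68457746 on the minus strand, each written 5′ to 3′ with the start just after the last base and a motif match in capitals. By GENCODE the MAP1LC3B and GABARAPL1 windows lie inside the span of their own gene, which begins upstream of the RefSeq start, and the WIPI1 window overlaps the first bases of its gene.
MAP1LC3B: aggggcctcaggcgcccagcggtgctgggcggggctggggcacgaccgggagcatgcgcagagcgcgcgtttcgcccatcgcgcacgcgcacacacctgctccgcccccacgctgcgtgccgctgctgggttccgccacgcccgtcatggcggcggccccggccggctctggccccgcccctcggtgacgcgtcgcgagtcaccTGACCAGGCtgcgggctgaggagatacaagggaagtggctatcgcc
GABARAPL1: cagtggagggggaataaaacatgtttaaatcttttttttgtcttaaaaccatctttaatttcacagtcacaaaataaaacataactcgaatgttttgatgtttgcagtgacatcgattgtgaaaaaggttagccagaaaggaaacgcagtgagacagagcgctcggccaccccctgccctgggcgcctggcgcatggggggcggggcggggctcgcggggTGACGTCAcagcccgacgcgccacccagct
WIPI1: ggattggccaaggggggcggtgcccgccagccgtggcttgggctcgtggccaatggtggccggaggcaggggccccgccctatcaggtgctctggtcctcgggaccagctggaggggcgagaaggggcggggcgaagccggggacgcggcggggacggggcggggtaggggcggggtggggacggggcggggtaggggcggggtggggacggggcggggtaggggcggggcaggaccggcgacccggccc
In the MAP1LC3B window the capitals mark a match to the core of the antioxidant response element (TGACNNNGC) from 46 to 38 bases before the start, a motif present in 10.9% of the 35116 RefSeq windows of this length. In the GABARAPL1 window they mark the cyclic AMP response element (TGACGTCA) from 30 to 23 bases before the start, which 1.65% of windows hold. None of the 6 motifs was found in the WIPI1 window or in any window of the other 7 members, where the other motifs were the core bound by CHOP or ATF4 heterodimers (TGATGNAA, in 3.14% of windows), the unfolded protein response element core (TGACGTGG, 0.612%), the ER stress response element (0.074%) and the E-box CACGTG (6.34%). The searched motifs do not overlap in the 2 windows with a match, and a match in letters is a description of the window and not evidence of binding.

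Estimated counts summed to between 12869311 and 56504690 per library, and the members had between 159 estimated counts (WIPI1) and 88721 (SQSTM1) in a library. Of 6 osteoblast markers, COL1A1, RUNX2, ALPL, BGLAP and SPP1 were present in every library and SP7 was at a count of 0 in 77 libraries. Of 5 epithelial markers, KRT8, KRT18, EPCAM and CDH1 were present in every library and KRT19 was at 0 in 74. Of the blood cell markers PTPRC, CD14, HBB and CD3E, none was present in every library: PTPRC was at 0 in 1, CD14 in 4, HBB in 83 and CD3E in 99, and none of these passed 1.72 TPM in any. ATF4 ran from 655 to 762 CPM (counts scaled to a common effective library size) in Dmr-PERK wells with dimerizer at 4 to 24 h, against 305 to 358 CPM in untreated wells, and DDIT3 ran from 73.1 to 92.2 CPM with dimerizer, against 7.41 to 11.6 CPM untreated. In Parental wells the dimerizer changed neither gene by the test (ATF4 log2 fold change -0.01 ± 0.02, DDIT3 -0.09 ± 0.06, standard error). Reads assigned to EIF2AK3 and FKBP1A were higher in untreated Dmr-PERK than in untreated Parental wells by 4.83 ± 0.02 and 2.22 ± 0.02 on the log2 scale, which are the genes related in sequence to the PERK and DmrB parts of the construct. One library, replicate 3 of Parental arsenite at 24 h, stood apart from the other wells of its group by its correlation with them (mean 0.9864), and without it 2 calls on the members were lost and 4 gained. Replicate 3 of Dmr-PERK arsenite at 4 h was next in unlikeness to its group, with a chi-square per degree of freedom of at least 14.28 against its mates and 2.72% of counts from mitochondrial genes, against 4.72% and 4.56% in them, and without it 1 call was lost and 3 gained. Values without either library stand beside the results where a call depends on it, and for Parental arsenite beside most effects. In bulk RNA, fewer cells and less RNA per cell cannot be told apart, and CPM values are shares of a library and not amounts per cell.

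In untreated cells the 10 genes spanned a wide range of levels. Ranked by TPM, an abundance scaled for transcript length, GABARAP came first in Dmr-PERK wells with 267, 308 and 336 TPM (lowest, median and highest of 15 wells), and SQSTM1 second with 222, 284 and 372 TPM. Those levels overlapped, and both genes lay above MAP1LC3B, the lipid-linked mark of autophagosomes, at 61.4, 77.0 and 82.9 TPM. After it came ATG12, GABARAPL1 and NBR1 with medians of 57.4, 47.5 and 37.9 TPM, then ULK1, WIPI1, ATG5 and ATG16L1 with medians of 22, 20.2, 17.7 and 13.1 TPM. Neighbours in this order overlapped over the 15 wells except SQSTM1 over MAP1LC3B and NBR1 over ULK1. Parental wells gave the same order but for the last places, where ATG16L1 (median 19.8 TPM) and ATG5 (18.6 TPM) overlapped. Untreated wells of the lines differed in 9 of the 10 genes (8 without replicate 2, where GABARAPL1 had 0.07 and an adjusted p of 0.0662), with 62.5% of all genes tested called: SQSTM1 was higher in Dmr-PERK by 0.37 ± 0.02 on the log2 scale, GABARAP by 0.31 ± 0.02 and MAP1LC3B by 0.28 ± 0.02, while ATG16L1 was lower (-0.52 ± 0.03) and ATG5 lower on counts (-0.38 ± 0.03) but not by the test on TPM. WIPI1 differed by 0.04 ± 0.03 and was not called. Untreated levels also moved with time in the plate, for 9 members in Dmr-PERK cells (all but ATG5, at a background of 53.4%) and for all 10 in Parental cells (55.4%). In Parental cells GABARAP was no longer called without replicate 1 or 2, nor ATG12 without replicate 3 (adjusted p 0.192, 0.148 and 0.0511). Treated groups at 4 to 24 h are therefore set against untreated wells of their own time, and those at 2 h, for which there are none, against untreated wells at 0 h.

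Over 4 to 24 h the dimerizer changed all 10 genes in Dmr-PERK cells, 8 upward and 2 downward, at a background of 55.2% of all genes called, 27.5% higher and 27.7% lower. The median log2 fold change of the members was 0.31, against -0.03 over all genes. Thapsigargin raised 8 and lowered 1 in the same line (background 63.0%, 30.9% higher and 32.2% lower, member median 0.52, all genes 0.00), and arsenite raised 8 and lowered 2 (background 83.6%, 44.4% higher and 39.2% lower, member median 0.54, all genes 0.12), where WIPI1 turned sign with library totals or TPM and ULK1 with upper-quartile factors. In Parental cells thapsigargin raised 9 and lowered 1 (background 65.1%, 30.1% higher and 35.0% lower, member median 0.47, all genes -0.06), and arsenite raised 8 and lowered 2 (background 82.1%, 42.7% higher and 39.4% lower, member median 0.50, all genes 0.09), where WIPI1 turned sign with library totals or TPM. The dimerizer changed 0 of 10 in Parental cells, with effects from -0.03 to 0.04 at a background of 0.582% (0.326% higher and 0.256% lower). By edgeR none of these 10 effects had an unadjusted p under 0.05 either, and DESeq2 called 0. These comparisons share their untreated wells within a line and are not independent of each other. The arsenite counts are read against a background in which most genes were called, and a share near it is not a result about the members. Library scaling bears on arsenite most: the median of all genes in Dmr-PERK arsenite wells was 0.12 with TMM factors, 0.22 with RLE, 0.35 with upper-quartile factors and -0.07 with library totals alone, so arsenite effects are also given relative to that median. Over the scalings tried, the Dmr-PERK arsenite effects less that median were 2.15 to 2.23 for SQSTM1, 2.15 to 2.16 for MAP1LC3B, 2.4 to 2.48 for GABARAPL1, 0.51 to 0.56 for ATG12, 0.45 to 0.54 for ATG5, 0.2 to 0.34 for GABARAP, 0.1 to 0.13 for NBR1 and -0.85 to -0.79 for ATG16L1. In Parental cells they were 2.03 for SQSTM1, 2.55 to 2.6 for MAP1LC3B, 2.03 to 2.19 for GABARAPL1, 0.72 to 0.75 for ATG12, 0.16 to 0.29 for ATG5, 0.35 to 0.53 for GABARAP, 0.18 to 0.23 for NBR1, -0.4 to -0.38 for ULK1 and -0.5 to -0.41 for ATG16L1. Of all genes called with arsenite, 53.1% were higher in Dmr-PERK cells (45.5% with library totals, 63.5% with upper-quartile factors) and 52.0% in Parental cells (43.9% and 63.3%), and with dimerizer in Dmr-PERK cells 49.8% were higher (38.8% with upper-quartile factors).

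**Figure D1:**
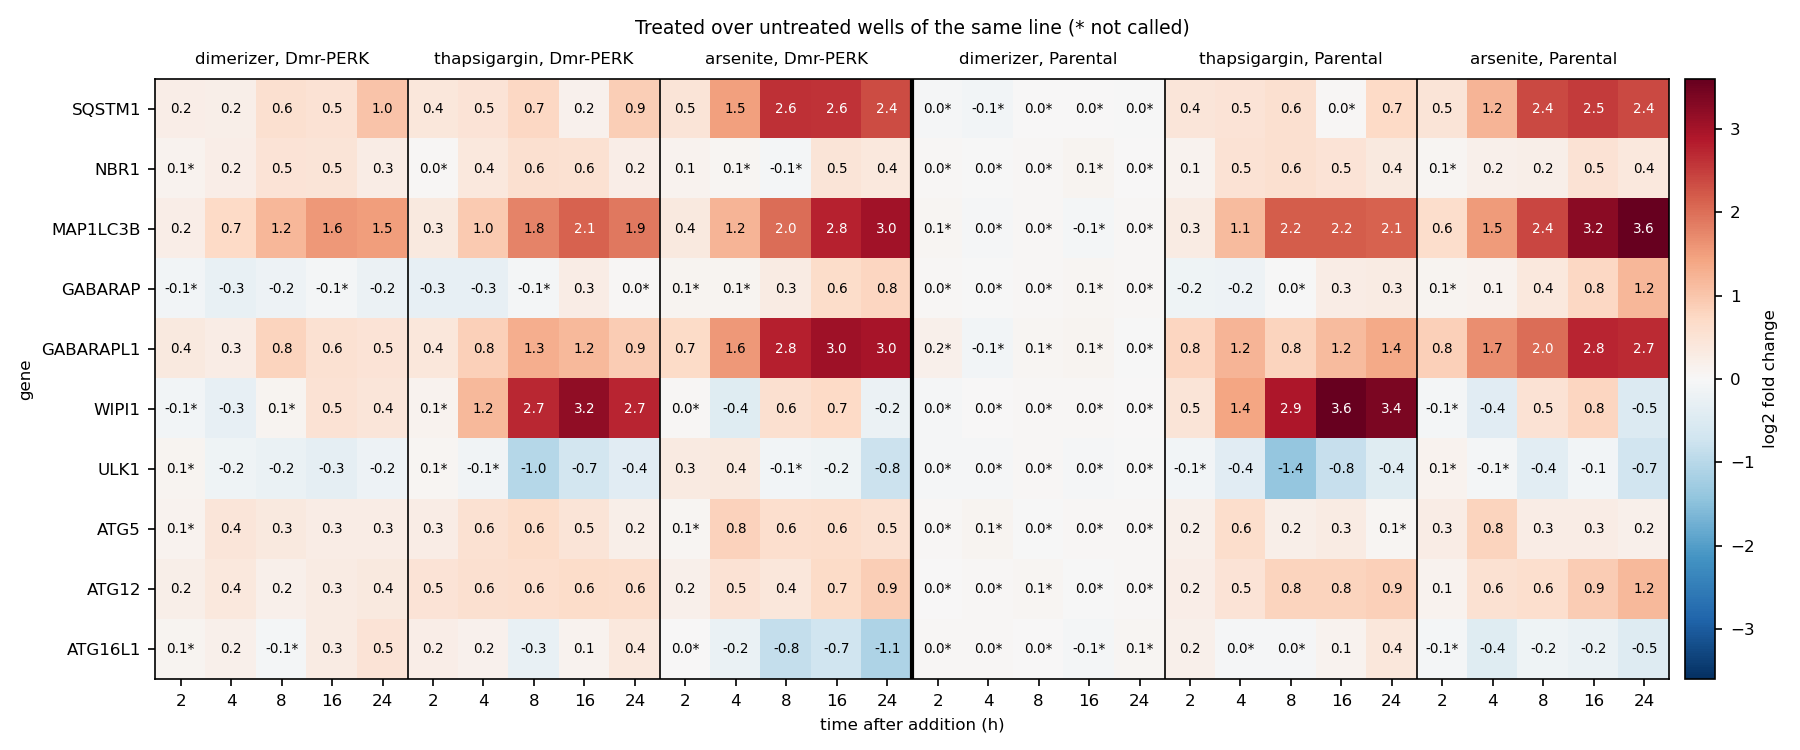
Log2 fold change of each of the 10 genes (rows) at each time in h (columns) for each agent and line, treated over time-matched untreated wells of that line (2 h against untreated 0 h), with an asterisk where the adjusted p was not under 0.05. MAP1LC3B, GABARAPL1 and SQSTM1 are high in every arsenite column from 4 h on. WIPI1 stands out with thapsigargin (3.20 at 16 h in Dmr-PERK), and the Parental dimerizer columns hold no call. Some arsenite values of WIPI1, ULK1, NBR1, ATG5 and ATG16L1 change sign with the scaling of libraries or on TPM. The ULK1 value at 4 h of dimerizer in Dmr-PERK cells also changes sign on TPM.

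The receptor SQSTM1, a hub for ubiquitinated cargo that is also a regulator of the NRF2 antioxidant pathway, rose with all 3 agents in Dmr-PERK cells and most with arsenite. Over the 12 wells at 4 to 24 h it ran from 402 to 716 CPM with dimerizer (median 455), from 340.1 to 657 with thapsigargin (median 497) and from 1017 to 2044 with arsenite (median 1745), against 267 to 403 CPM in untreated wells (median 337). Every arsenite well lay above every untreated well, while the lowest dimerizer and thapsigargin wells lay within the untreated range once times were pooled. Set against untreated wells of the same time, the log2 fold changes were 0.58 ± 0.02 with dimerizer (1.49-fold), 0.57 ± 0.02 with thapsigargin (1.48-fold) and 2.27 ± 0.02 with arsenite (4.81-fold), with adjusted p of 3.89e-46, 6.05e-46 and 4.18e-97.

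SQSTM1 followed a different course with each agent. At 8 h the dimerizer wells had 425, 402 and 405 CPM, against 275, 286 and 267 CPM in untreated wells. By 24 h they had 706, 716 and 698 CPM, against 353, 352 and 342 CPM, and the 3 dimerizer wells lay above the 3 untreated wells at every time. The log2 fold change with dimerizer was 0.20 ± 0.04 at 4 h and 1.02 ± 0.04 at 24 h. Thapsigargin gave 0.74 ± 0.04 at 8 h, only 0.16 ± 0.04 at 16 h and 0.88 ± 0.04 at 24 h, a dip that Parental cells also showed (0.57 ± 0.04, then 0.05 ± 0.04 and not called, then 0.71 ± 0.04). At 16 h the Parental thapsigargin wells had 266, 285 and 278 CPM, against 269, 269 and 263 CPM in untreated wells, and overlapped them. Arsenite at 16 h gave 2044, 1946 and 1884 CPM, against 315, 325 and 331 CPM in untreated Dmr-PERK wells, a separation of 6.05-fold.

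NBR1, a receptor that works with SQSTM1 and is more selective for protein aggregates and peroxisomes, had smaller differences. It ran from 106 to 141 CPM with dimerizer (median 131), from 116 to 149 with thapsigargin (median 136) and from 85.8 to 145 with arsenite (median 117) in Dmr-PERK wells, against 89.7 to 117 CPM untreated (median 95.9). The ranges overlapped in each case when times were pooled. At matched times the effects were 0.36 ± 0.03, 0.44 ± 0.02 and 0.22 ± 0.03 on the log2 scale, all called, and the arsenite one was 0.1 to 0.13 relative to the median of all genes. With arsenite its course was not even. At 2 h the wells had 132, 138 and 125 CPM, against 116, 123 and 119 CPM at 0 h (0.14 ± 0.05, called, and not called without replicate 1 or 2, adjusted p 0.305 and 0.244). At 4 h they lay just above the untreated wells without a call (0.07 ± 0.05). At 8 h the wells had 91.3, 88.2 and 85.8 CPM, against 90.5, 93.3 and 94.4 CPM untreated, overlapping (-0.06 ± 0.05, not called), and at 16 h they had 142, 135 and 132 CPM, against 100.3, 97.9 and 96.6 CPM (0.47 ± 0.05). Upper-quartile scaling gave 0.14 at 8 h and so turned that sign.

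**Figure D2:**
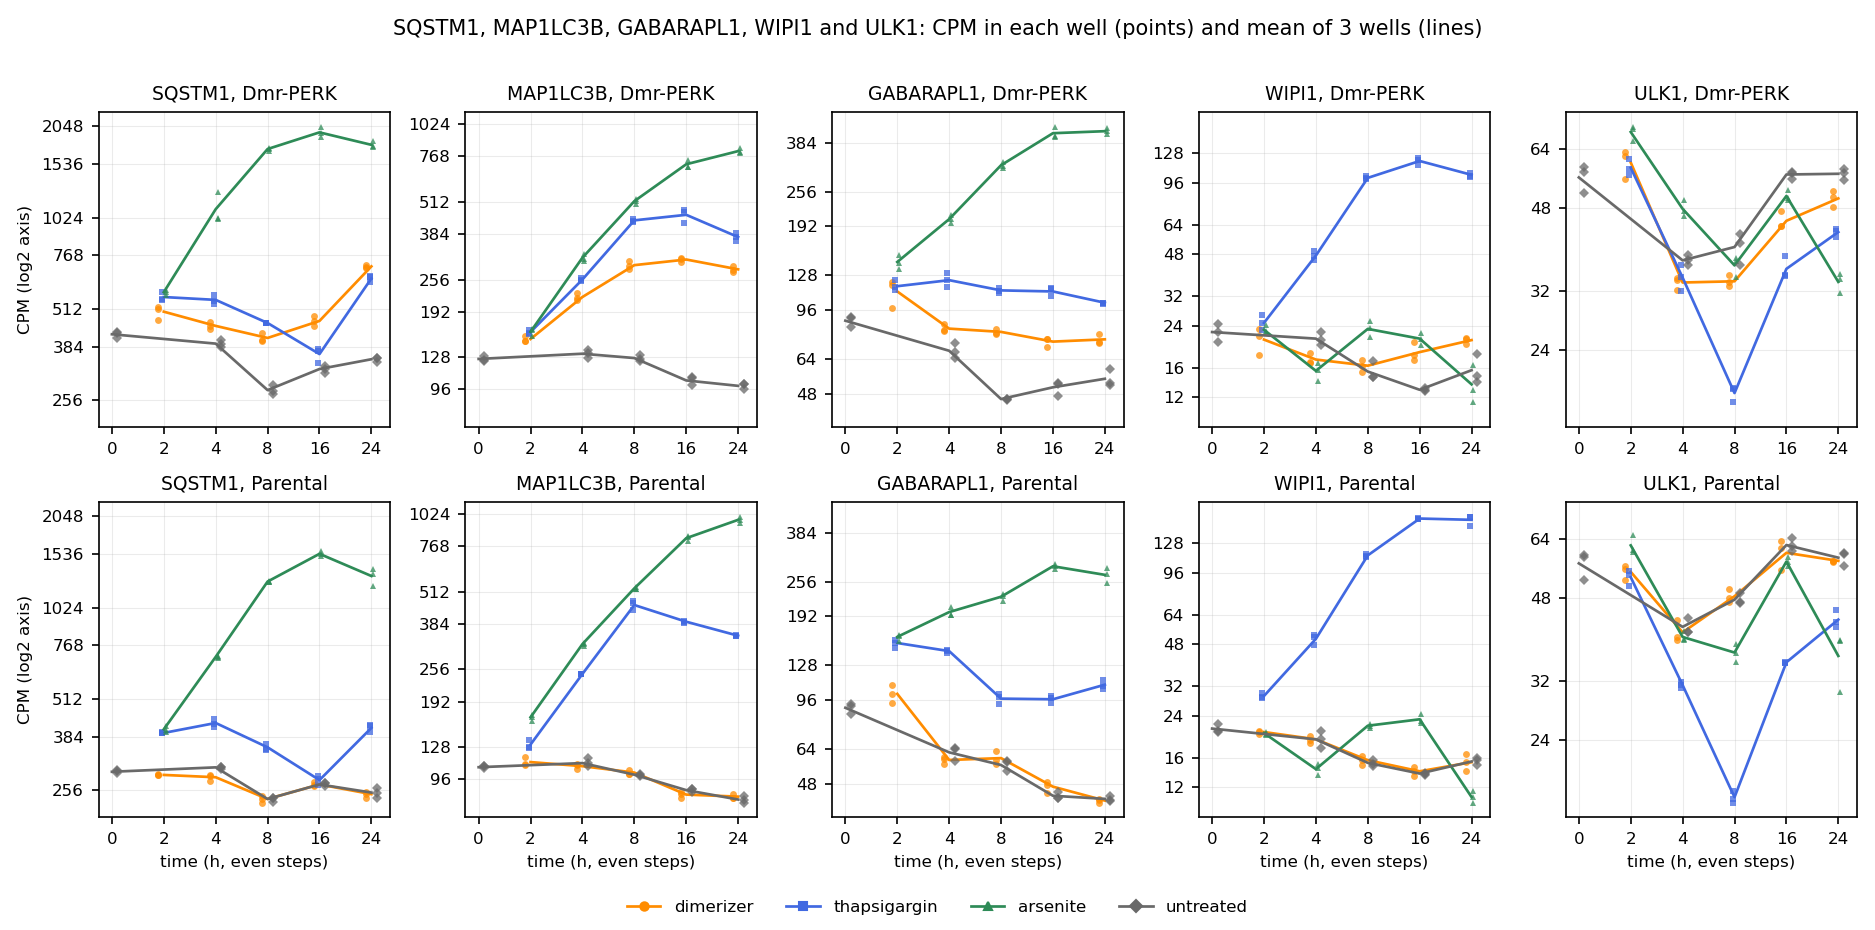
CPM on a log2 axis at each time in h (even steps) for SQSTM1, MAP1LC3B, GABARAPL1, WIPI1 and ULK1, with Dmr-PERK wells in the upper row and Parental wells in the lower row. Points are wells, lines join means of 3 wells, and colours give dimerizer, thapsigargin, arsenite and untreated wells. MAP1LC3B fans out by agent in Dmr-PERK cells, WIPI1 leaves the other curves with thapsigargin, and ULK1 dips at 8 h with thapsigargin to between 17.7 and 20.0 CPM in both lines.

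MAP1LC3B encodes LC3B, the Atg8 protein used as the usual mark of autophagosomes, and it had the highest rise of the 10 genes with dimerizer. In Dmr-PERK wells at 4 to 24 h it ran from 214 to 309.9 CPM with dimerizer (median 285), from 253 to 477 with thapsigargin (median 406) and from 303 to 825 with arsenite (median 612), against 96.0 to 136 CPM untreated (median 115). No treated well overlapped an untreated one. The effects were 1.25 ± 0.02 with dimerizer (2.37-fold, adjusted p 2.77e-80), 1.69 ± 0.02 with thapsigargin (3.23-fold) and 2.27 ± 0.02 with arsenite (4.81-fold). In Parental wells the dimerizer gave 81.0 to 110.0 CPM, against 77.8 to 116 CPM untreated, ranges that lay on top of each other, and an effect of -0.01 whose interval of 2 standard errors ran from -0.05 to 0.02.

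Time set the agents apart for MAP1LC3B. At 2 h the Dmr-PERK wells had 148, 148 and 155 CPM with dimerizer, 158, 159 and 163 with thapsigargin and 155, 164 and 163 with arsenite, against 129, 124 and 125 CPM in untreated wells at 0 h. All 9 treated wells were already higher, by 0.25 ± 0.03, 0.34 ± 0.03 and 0.35 ± 0.03 on the log2 scale. Parental dimerizer wells at 2 h also lay above untreated Parental wells at 0 h. That difference was not called by edgeR, and had an unadjusted p under 0.05 by DESeq2. In Dmr-PERK cells the difference with dimerizer then grew to 0.73, 1.2, 1.55 and 1.5 at 4, 8, 16 and 24 h. With thapsigargin it grew to 0.95, 1.78, 2.13 and 1.91. With arsenite it reached 1.23, 2.02, 2.78 and 3.02 over the same times, the last from wells at 797, 794 and 825 CPM, against 100.3, 101 and 96.0 CPM untreated. In Parental arsenite wells at 24 h it reached 3.6 ± 0.04 (12.1-fold), at 968, 1001 and 949 CPM, against 82.9, 79.8 and 77.8 CPM. The near-identical gene MAP1LC3B2 stayed at or below 3.04 CPM in every group, and how reads were divided between this pair of genes is uncertain.

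GABARAP, an Atg8 protein that acts in later steps of autophagosome formation, was the member with the highest untreated TPM and among the least moved. Dmr-PERK wells had 85.2 to 99.0 CPM with dimerizer (median 89.7), 87.8 to 118 with thapsigargin (median 102) and 102 to 197 with arsenite (median 137), against 90.0 to 113 CPM untreated (median 104). All 3 ranges overlapped the untreated one, dimerizer wells at its lower end and arsenite wells mostly above it. The dimerizer lowered it slightly (-0.18 ± 0.03), thapsigargin did not change it by the test over 4 to 24 h (-0.01 ± 0.03, adjusted p 0.844), and arsenite raised it (0.45 ± 0.03, or 0.2 to 0.34 relative to the median of all genes). The thapsigargin mean joined opposite parts: -0.29 ± 0.05 at 4 h and 0.28 ± 0.05 at 16 h, and a mean over 8 to 24 h alone gave 0.09, which was called (adjusted p 0.0115). In Parental arsenite wells at 24 h, GABARAP had 179.9, 183 and 226 CPM, against 86.2, 88.0 and 83.7 CPM untreated, with the 226 CPM in the library that stood apart. The log2 fold change there was 1.19 with that library and 1.07 without it.

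GABARAPL1, the close relative of GABARAP, rose with each agent in Dmr-PERK cells and had the highest arsenite effect of the 10. It ran from 70.6 to 85.2 CPM with dimerizer (median 78.8), from 101 to 131 with thapsigargin (median 113) and from 197 to 439 with arsenite (median 365), against 45.5 to 73.1 CPM untreated (median 52.3). The 4 sets of wells lay one above the other, with only the dimerizer wells reaching down into the untreated range. The effects were 0.52 ± 0.03 (1.44-fold), 1.05 ± 0.03 (2.07-fold) and 2.59 ± 0.03 (6.04-fold). At 16 h with arsenite the wells held 439, 402 and 408 CPM, against 52.2, 52.4 and 47.2 CPM untreated, 8.24-fold apart. With dimerizer the difference was largest at 8 h (0.80 ± 0.06, from 78.7, 79.5 and 82.2 CPM, against 46.0, 46.1 and 45.5 CPM), and the untreated wells at 8 h were themselves lower than those at 0 h, which had 83.3, 89.8 and 90.6 CPM. Parental wells at 2 h of dimerizer had 93.9, 101 and 109 CPM, against 85.5, 92.8 and 91.6 CPM at 0 h. The wells did not overlap, yet the difference (0.18 ± 0.05) did not pass the test by edgeR (adjusted p 0.211).

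WIPI1, which binds phosphatidylinositol 3-phosphate on the growing membrane and helps recruit the conjugation complex, was set apart by thapsigargin. Dmr-PERK wells ran from 45.7 to 123 CPM with thapsigargin (median 102), from 15.3 to 21.4 with dimerizer (median 17.7) and from 11.5 to 25.1 with arsenite (median 18.4), against 12.8 to 22.7 CPM untreated (median 14.6). Thapsigargin wells lay far above all others, and the dimerizer, arsenite and untreated ranges overlapped. Thapsigargin raised WIPI1 by 2.45 ± 0.03 (5.48-fold, adjusted p 4.41e-83) in the construct line and by 2.82 ± 0.03 (7.06-fold) in Parental cells. The 2 h Dmr-PERK wells still overlapped untreated ones (23.0, 24.6 and 26.6 CPM, against 20.6, 22.7 and 24.4 CPM), and by 16 h they had 123, 119.6 and 114 CPM, against 13.1, 12.8 and 12.9 CPM, 9.20-fold apart. Parental wells at 16 h had 164, 163 and 163 CPM, against 13.5, 13.6 and 13.8 CPM, 12-fold apart.

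With the other agents WIPI1 moved little and in both directions. The dimerizer gave -0.29 ± 0.07 at 4 h in Dmr-PERK cells, 0.09 ± 0.08 at 8 h (not called) and 0.52 ± 0.08 at 16 h, where the wells had 20.5, 18.1 and 17.2 CPM, against 13.1, 12.8 and 12.9 CPM. At 24 h the dimerizer wells again lay above the untreated ones, and the difference was called. The dimerizer effect over 4 to 24 h was called higher, and was 0.14 to 0.22 relative to the median of all genes. Arsenite gave -0.45 ± 0.08 at 4 h, 0.57 ± 0.08 and 0.71 ± 0.08 at 8 and 16 h, and -0.21 ± 0.08 at 24 h. Of these, the 4 h dimerizer value was not called without replicate 2 (-0.23, adjusted p 0.0693), nor the 24 h arsenite value without replicate 2 or 3 (-0.22 and -0.20, adjusted p 0.0505 and 0.0888). With RLE and upper-quartile factors the 24 h value turned to 0.01 and 0.18. The mean arsenite effect over 4 to 24 h was 0.16 ± 0.04 in Dmr-PERK wells and 0.09 ± 0.04 in Parental ones, but it was -0.04 and -0.09 with library totals alone and -0.14 and -0.31 on TPM. Relative to the median of all genes it lay between -0.11 and 0.04 in Dmr-PERK cells over these scalings, so no direction is given for it. The Parental range was -0.22 to 0.0. In Parental cells the call was also lost without the library that stood apart (0.08, adjusted p 0.0868), without replicate 2 (0.09, adjusted p 0.114) and without replicate 3 (0.09, adjusted p 0.0951).

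ULK1, the kinase that receives the nutrient and energy signals which start autophagy, was lower at matched times with dimerizer and thapsigargin, and with arsenite lay above and then below its untreated wells. Dmr-PERK wells had 32.2 to 52.1 CPM with dimerizer (median 39.3), 18.7 to 43.4 with thapsigargin (median 34.6) and 31.8 to 52.4 with arsenite (median 42.0), against 36.3 to 58.0 CPM untreated (median 48.7). All of these ranges overlapped over the pooled times. At matched times ULK1 fell by 0.22 on the log2 scale with dimerizer (standard error 0.03) and by 0.55 with thapsigargin (standard error 0.03). At single times the 4 h dimerizer call was lost without replicate 1, 2 or 3 (adjusted p 0.103, 0.0627 and 0.153). The 8 h and 24 h dimerizer calls were lost without replicate 2 (adjusted p 0.0566 and 0.0801). On TPM the 4 h dimerizer value turned to 0.10 and was not called. The lowest point was at 8 h of thapsigargin, where wells had 19.9, 18.7 and 20.0 CPM, against 36.4, 42.3 and 40.4 CPM untreated (-1.02 ± 0.06), and in Parental cells 17.7, 18.8 and 18.0 CPM, against 47.0, 49.1 and 46.8 CPM (-1.38 ± 0.06). By 24 h the thapsigargin difference was -0.41 ± 0.05 in Dmr-PERK and -0.44 ± 0.05 in Parental cells. With arsenite in Dmr-PERK cells the wells had 71.3, 70.6 and 66.6 CPM at 2 h, against 51.6, 57.1 and 58.5 CPM at 0 h (0.32 ± 0.05), and 49.9, 46.2 and 47.3 CPM at 4 h, against 38.2, 36.3 and 37.2 CPM (0.36 ± 0.06). By 24 h they had 33.9, 34.8 and 31.8 CPM, against 56.9, 58.0 and 55.1 CPM (-0.77 ± 0.06). The mean over 4 to 24 h joins these opposite parts: it was -0.17 ± 0.03, became 0.07 with upper-quartile scaling, and lay between -0.28 and -0.24 relative to the median of all genes under every scaling tried.

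**Figure D3:**
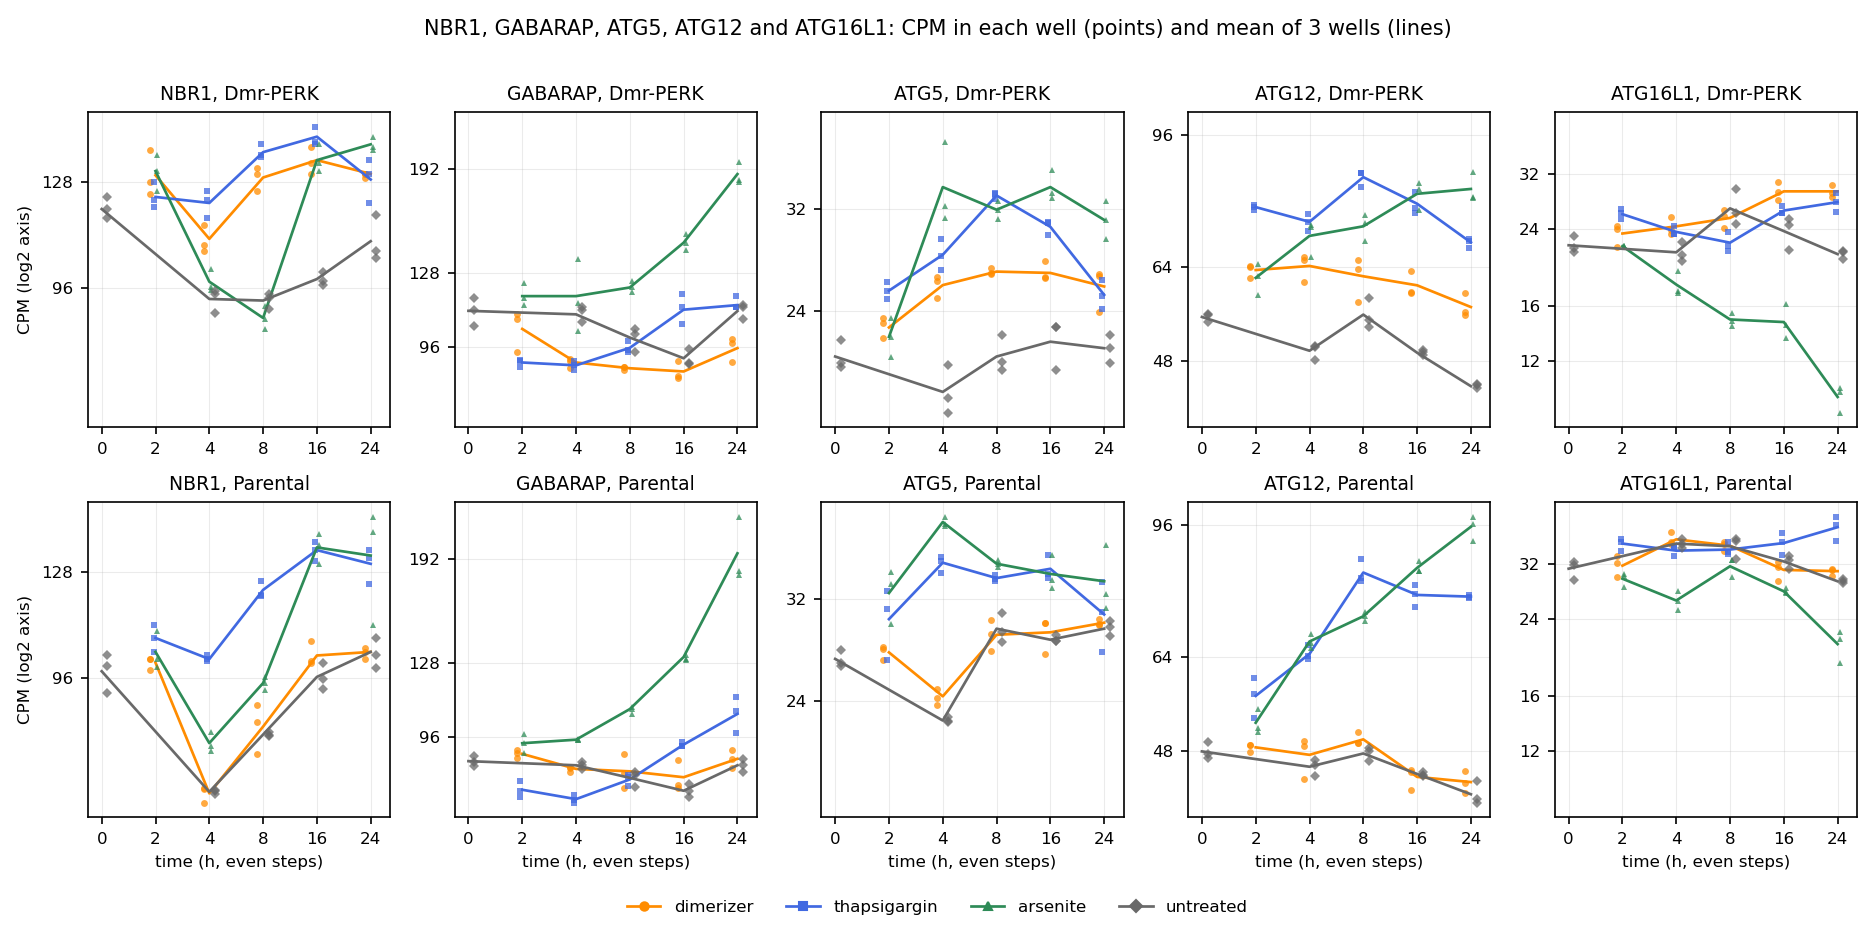
CPM on a log2 axis at each time in h (even steps) for NBR1, GABARAP, ATG5, ATG12 and ATG16L1, with Dmr-PERK wells in the upper row and Parental wells in the lower row. Points are wells and lines join means of 3 wells. GABARAP rises late with arsenite, ATG12 lies above its untreated wells with all 3 agents in Dmr-PERK cells except for an overlap at 8 h of dimerizer, and ATG16L1 falls with arsenite to 10.4, 10.2 and 9.12 CPM at 24 h in Dmr-PERK cells.

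ATG5, ATG12 and ATG16L1 form the complex that attaches Atg8 proteins to lipid, and they did not move as a unit. ATG12, the ubiquitin-like protein that is joined to ATG5, ran from 55.2 to 66.0 CPM with dimerizer (median 60.2), from 67.8 to 85.5 with thapsigargin (median 75.5) and from 66.0 to 85.7 with arsenite (median 75.7) in Dmr-PERK wells, against 44.1 to 58.2 CPM untreated (median 49.4). Thapsigargin and arsenite wells lay wholly above the untreated ones, and dimerizer wells overlapped them slightly. Its effects were 0.30 ± 0.02, 0.62 ± 0.02 and 0.62 ± 0.02. Thapsigargin had already raised it at 2 h (0.49 ± 0.04), and it was the 1 member for which a change of the thapsigargin effect over 4 to 24 h was not called.

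ATG5, the acceptor of ATG12, ran from 23.9 to 27.6 CPM with dimerizer (median 26.5), from 24.1 to 33.4 with thapsigargin (median 29.5) and from 29.4 to 38.6 with arsenite (median 32.4), against 18.0 to 22.9 CPM untreated (median 20.8). No treated well of Dmr-PERK cells at 4 to 24 h overlapped an untreated one. The effects were 0.33 ± 0.03, 0.47 ± 0.03 and 0.65 ± 0.03, and all lay between 1.25-fold and 1.57-fold. Arsenite was highest at 4 h (0.83 ± 0.06), with wells at 32.2, 31.2 and 38.6 CPM, against 20.6, 18.0 and 18.8 CPM. The 38.6 CPM is from the library unlike its mates, and without it the value was 0.73 and still the highest of the 4 times. By the test of change with time, the 4 times differed with all libraries (adjusted p 0.0113) but were not called without that library (0.152). In Parental arsenite wells at 24 h the difference of 0.19 ± 0.06 was 0.10 and not called (adjusted p 0.135) without the library that stood apart. It turned to -0.12, not called, with library totals alone, and to -0.36 on TPM, which was called lower (adjusted p 0.000898).

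ATG16L1, which fixes the site of lipid attachment, split by agent. Dmr-PERK wells had 23.4 to 30.6 CPM with dimerizer (median 27.2), 21.3 to 28.9 with thapsigargin (median 25.1) and 9.12 to 19.2 with arsenite (median 14.6), against 20.3 to 29.6 CPM untreated (median 21.9). Every arsenite well was below every untreated well, and the other agents' wells overlapped them. The dimerizer effect was 0.22 ± 0.03, thapsigargin 0.11 ± 0.03 and arsenite -0.73 ± 0.03. The thapsigargin mean joins opposite parts, since at 8 h the wells had 21.9, 21.3 and 23.6 CPM, against 26.0, 29.6 and 24.6 CPM (-0.26 ± 0.06), and at 24 h they were higher (0.39 ± 0.06), and with upper-quartile factors the mean was 0.06 and not called. Without replicate 2 the 8 h value was -0.16 and not called (adjusted p 0.078). The 4 h thapsigargin call was lost without replicate 2 or 3, and the 16 h call without replicate 1 or 2. With arsenite the fall deepened to -1.11 ± 0.07 at 24 h in Dmr-PERK cells, where wells had 10.4, 10.2 and 9.12 CPM, against 21.3, 21.2 and 20.5 CPM. Parental wells at 24 h of arsenite had 21.6, 22.4 and 19.0 CPM, against 29.5, 29.3 and 28.9 CPM, a difference of -0.47 ± 0.06, or -0.42 without the library that stood apart.

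The number of members called differed with time, and times of onset were not tested against each other. With dimerizer in Dmr-PERK cells 4 members were called at 2 h (background 17.7% of all genes), 10 at 4 h (30.2%), 8 at 8 h (37.0%), 9 at 16 h (43.2%) and 10 at 24 h (48.1%). The 4 called at 2 h were SQSTM1, MAP1LC3B, GABARAPL1 and ATG12. Of the later dimerizer calls, those of ULK1, WIPI1 and ATG16L1 at 4 h were lost without a replicate. So were those of GABARAP, ULK1 and ATG12 at 8 h, and of GABARAP and ULK1 at 24 h. Thapsigargin in the same line gave 7, 9, 9, 10 and 9 calls at these times, with backgrounds of 33.2%, 39.6%, 49.4%, 51.5% and 55.0%. Arsenite gave 6, 8, 8, 10 and 10, with backgrounds of 19.9%, 49.1%, 67.4%, 78.8% and 81.5%. In Parental cells thapsigargin gave 9, 9, 8, 9 and 9 calls (backgrounds 29.2%, 40.6%, 49.7%, 56.2% and 54.6%) and arsenite 5, 9, 10, 10 and 10 (18.4%, 49.2%, 60.1%, 78.8% and 80.5%). Calls lost without a replicate were, with thapsigargin in Dmr-PERK cells, ATG16L1 at 4, 8 and 16 h and ATG5 at 24 h. With arsenite there they were NBR1 and ATG12 at 2 h, ATG16L1 at 4 h, ULK1 at 16 h and WIPI1 at 24 h. Parental thapsigargin calls lost were NBR1, GABARAP, ATG5 and ATG16L1 at 2 h, GABARAP at 4 h and ATG16L1 at 16 h. Parental arsenite calls lost were ATG5 and ATG12 at 2 h, GABARAP at 4 h and ATG16L1 at 8 h. ULK1 at 16 h and ATG5 at 24 h were also lost there. The 2 h calls set treated wells against untreated wells at 0 h. Against untreated wells at 4 h instead, 13 further tests of members passed with the same sign. In Parental cells ULK1 turned sign to 0.39 with dimerizer and 0.36 with thapsigargin, and ATG16L1 to -0.17 with dimerizer, all called. The ATG16L1 call with thapsigargin in Parental cells was lost (-0.00, adjusted p 0.996). The effect itself changed between 4 and 24 h for 7 members with dimerizer in Dmr-PERK cells (all but GABARAP, ULK1 and ATG5, with 42.1% of all genes called), for 9 with thapsigargin (52.2%) and for 10 with arsenite (71.2%), and in Parental cells for 10 with thapsigargin (49.9%), 10 with arsenite (73.1%) and 0 with dimerizer (3.76%, with 1 at an unadjusted p under 0.05 by edgeR and by DESeq2). Calls were lost for ATG12 with dimerizer without replicate 1 or 2 (adjusted p 0.358 and 0.0578), for ATG5 with arsenite in Dmr-PERK cells without replicate 3 (0.373) or without the 4 h library unlike its mates alone (0.152), and for NBR1 with thapsigargin in Parental cells without replicate 1 or 2 (0.225 and 0.199).

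The dimerizer effects of the lines were set against each other over 4 to 24 h. The lines also differed before treatment, so the construct and any other difference between them cannot be told apart. All 10 members differed, 8 with a higher and 2 with a lower effect in Dmr-PERK than in Parental cells, at a background of 47.0%. MAP1LC3B differed most (1.26 ± 0.02), then SQSTM1 (0.61 ± 0.03) and GABARAPL1 (0.50 ± 0.04), and GABARAP and ULK1 differed downward (-0.21 ± 0.04 and -0.20 ± 0.04). NBR1, ATG5, ATG12, ATG16L1 and WIPI1 lay between 0.17 and 0.33, and the WIPI1 difference was 0.14 and not called (adjusted p 0.0776) without replicate 1. At single times the Parental dimerizer wells gave 0 calls among 50 member and time tests by edgeR, with 3 at an unadjusted p under 0.05 (SQSTM1 at 4 h, GABARAPL1 at 2 and 16 h), while DESeq2 called 1 and gave 5 at an unadjusted p under 0.05, and edgeR called 1 (SQSTM1 at 4 h, -0.11) without the Dmr-PERK arsenite library unlike its mates. The share of all genes called in Parental dimerizer wells was 0.178% at 2 h, 7.52% at 4 h and 0.0% at 8, 16 and 24 h. Intervals of 2 standard errors around the 10 Parental effects over 4 to 24 h lay between -0.07 and 0.09, which bounds what these wells can show and does not show that there is no effect.

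In Parental cells SQSTM1, GABARAPL1 and MAP1LC3B also rose with thapsigargin and arsenite. SQSTM1 ran from 698 to 1573 CPM with arsenite (median 1251) and from 266 to 440.0 with thapsigargin (median 381), against 234 to 306 CPM untreated (median 262), which is 2.13 ± 0.02 (4.36-fold) and 0.45 ± 0.02 (1.37-fold) at matched times. Arsenite wells lay wholly above the untreated range, and thapsigargin wells overlapped it through their 16 h values. GABARAPL1 ran from 194 to 296 CPM with arsenite (median 243) and from 92.5 to 145 with thapsigargin (median 103), against 41.7 to 64.5 CPM untreated (median 49.0). Neither treated range met the untreated one, and the effects were 2.28 ± 0.03 (4.85-fold) and 1.13 ± 0.03 (2.19-fold). MAP1LC3B rose by 2.69 ± 0.02 with arsenite (6.46-fold) and by 1.90 ± 0.02 with thapsigargin (3.73-fold). With arsenite ATG12 rose by 0.81 ± 0.02, GABARAP by 0.62 ± 0.03, ATG5 by 0.38 ± 0.03 and NBR1 by 0.32 ± 0.03, and without the library that stood apart by 0.80, 0.58, 0.36 and 0.35 in the same order. At 24 h alone NBR1 was -0.23 and ATG5 -0.36 on TPM, both called lower, against 0.39 and 0.19 on counts. With thapsigargin ATG12 rose by 0.74 ± 0.02, NBR1 by 0.48 ± 0.02 and ATG5 by 0.30 ± 0.03. The thapsigargin mean of GABARAP (0.09 ± 0.03, called, but 0.04 and not called by upper-quartile factors) joins opposite parts, with 75.2, 74.3 and 76.7 CPM at 4 h, against 87.0, 84.7 and 86.2 CPM untreated (-0.19 ± 0.05, not called without replicate 1, adjusted p 0.0936), and 106, 112 and 97.6 CPM at 24 h, against 86.2, 88.0 and 83.7 CPM (0.29 ± 0.05). ATG16L1 had 19.0 to 32.6 CPM with arsenite (median 27.5), against 28.9 to 36.5 CPM untreated (median 33.1), with overlap and an effect of -0.32 ± 0.03 (-0.31 without that library). ULK1 fell by 0.31 on the log2 scale with arsenite (0.29 without that library) and by 0.76 with thapsigargin (standard error 0.03 each).

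Thapsigargin and arsenite acted in both lines. For thapsigargin 6 members differed between lines (3 higher and 3 lower in Dmr-PERK, background 25.7%), the largest being WIPI1 (-0.37 ± 0.05), with MAP1LC3B (-0.21 ± 0.02) and ULK1 (0.21 ± 0.04) next. For arsenite 9 differed (4 higher and 5 lower, background 42.2%, where NBR1 turned sign on TPM), with MAP1LC3B lower in Dmr-PERK (-0.43 ± 0.02), ATG16L1 lower (-0.41 ± 0.04) and GABARAPL1 higher (0.32 ± 0.04). WIPI1 did not differ by the test with arsenite (0.06 ± 0.06). For both agents the sign of the effect was the same in the lines for SQSTM1, NBR1, MAP1LC3B, GABARAPL1, ULK1, ATG5, ATG12 and ATG16L1, with ULK1 in Dmr-PERK arsenite wells turning sign under upper-quartile factors. The thapsigargin and arsenite results rest on lines in which 9 of the 10 genes already differed before treatment.

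**Figure D4:**
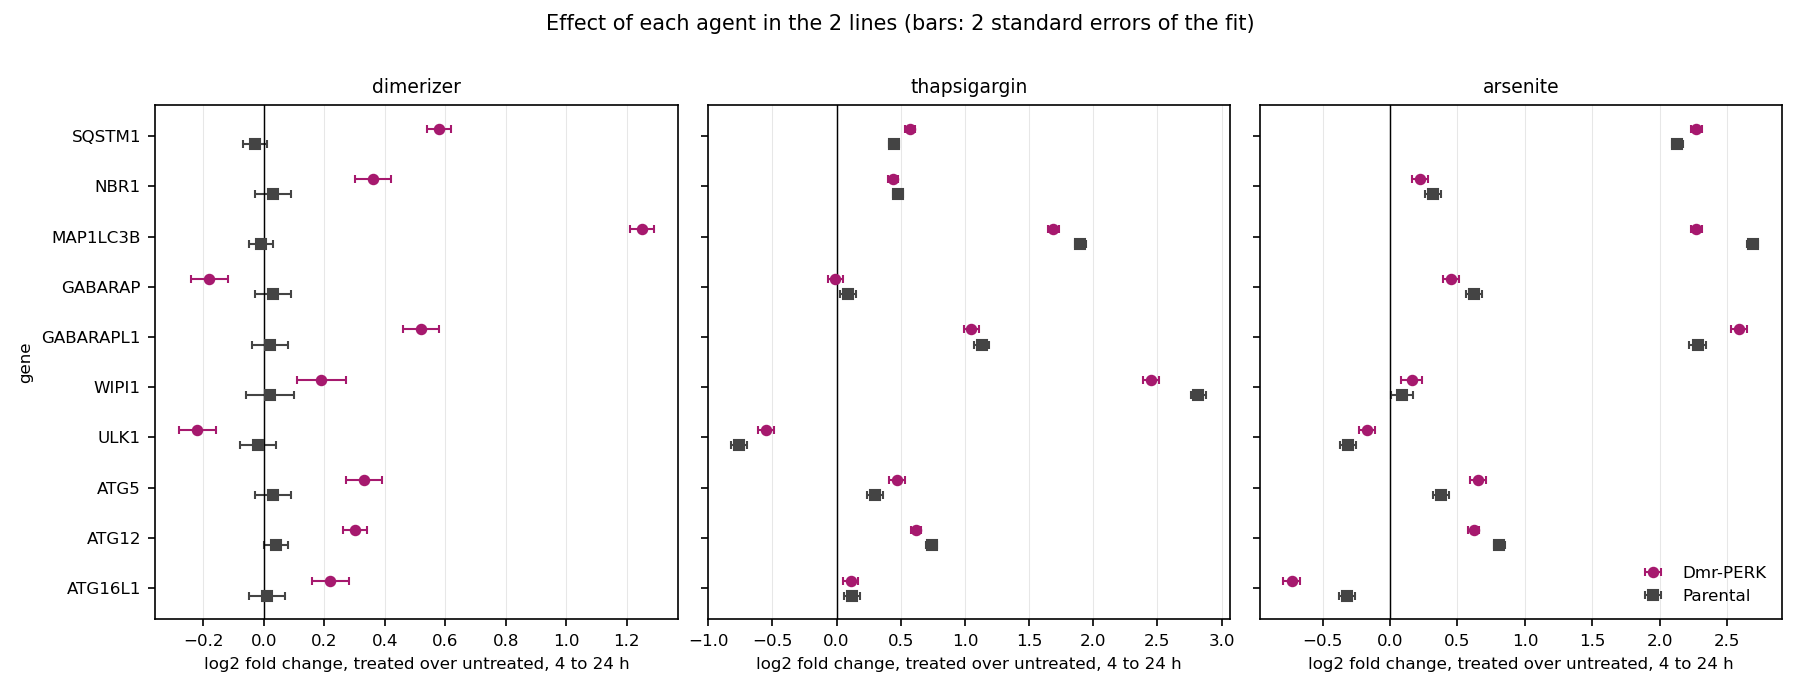
Log2 fold change over 4 to 24 h, treated over untreated, for each gene in Dmr-PERK (circles) and Parental cells (squares), with bars of 2 standard errors of the fit and a separate scale for each agent. With dimerizer the Parental points sit between -0.03 and 0.04 and the Dmr-PERK points do not, while with thapsigargin and arsenite the points of the lines lie close together for most genes. The small arsenite points of WIPI1 in both lines, and of ULK1 in Dmr-PERK cells, turn sign with another scaling of libraries.

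Agents were also set directly against each other in Dmr-PERK cells over all 5 times. Dimerizer wells were lower than thapsigargin wells for 6 members and higher for 2 (background 47.1%), of which ATG16L1 turned sign on TPM and was not called without replicate 1 or 2, and GABARAP (-0.10 ± 0.02) was not called without replicate 1 (-0.07, adjusted p 0.0877). The widest gap was WIPI1 (-1.86 ± 0.03), followed by GABARAPL1 (-0.44 ± 0.02), MAP1LC3B (-0.38 ± 0.01), ATG12 (-0.31 ± 0.02) and ATG5 (-0.15 ± 0.03). ULK1 (0.27 ± 0.02) and ATG16L1 (0.06 ± 0.03) were higher with dimerizer. SQSTM1 (-0.02 ± 0.02) and NBR1 (-0.05 ± 0.02) were not called, with intervals of 2 standard errors from -0.06 to 0.01 and from -0.09 to -0.00, which does not show that the agents act alike on them. Dimerizer wells were lower than arsenite wells for 7 members and higher for 2 (background 80.4%, where NBR1 turned sign with upper-quartile factors and ULK1 with library totals), by -1.73 ± 0.02 for GABARAPL1, -1.39 ± 0.02 for SQSTM1, -0.83 ± 0.01 for MAP1LC3B, -0.54 ± 0.02 for GABARAP, -0.25 for ATG5 and ATG12 (standard errors 0.03 and 0.02) and -0.09 ± 0.02 for ULK1, with ATG16L1 higher by 0.78 ± 0.03 and NBR1 by 0.11 ± 0.02. WIPI1 was not called there (-0.00 ± 0.03), but was higher with dimerizer by library totals (0.15) and on TPM (0.20). Thapsigargin wells exceeded arsenite wells for WIPI1 by 1.86 ± 0.03 in Dmr-PERK and 2.28 ± 0.03 in Parental cells, with 80.8% and 79.2% of all genes called. ATG16L1 was higher with thapsigargin too (0.72 ± 0.03 and 0.40 ± 0.03 in the same order of lines). SQSTM1 (-1.37 ± 0.02 and -1.35 ± 0.02), GABARAPL1 (-1.29 ± 0.02 and -0.93 ± 0.02), MAP1LC3B (-0.46 ± 0.01 and -0.70 ± 0.01), GABARAP (-0.44 ± 0.02 and -0.48 ± 0.02) and ULK1 (-0.36 ± 0.02 and -0.41 ± 0.03) were lower with thapsigargin than with arsenite. By the fitted values no direction is given for NBR1 (0.16 and 0.14), ATG5 (-0.10 and -0.09) and ATG12 (0.06 and, not called, -0.04). These turned sign with another scaling in each line, and the Parental ATG5 call was also lost without replicate 3 (-0.06, adjusted p 0.0611). Relative to the median of all genes, these genes lay above 0 under every scaling tried in both lines. In Dmr-PERK cells NBR1 had 0.3, ATG12 0.14 to 0.2 and ATG5 0.03 to 0.14. In Parental cells NBR1 had 0.27 to 0.3, ATG12 0.05 to 0.1 and ATG5 0.04 to 0.16. The median of all genes was itself -0.12 for dimerizer minus arsenite and -0.14 for thapsigargin minus arsenite in both lines. Relative to its median over the scalings tried, dimerizer minus arsenite was -0.13 to -0.03 for ATG5 and -0.16 to -0.13 for ATG12. For ULK1 it was -0.06 to 0.03, on both sides of 0, and for NBR1 0.21 to 0.23.

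Across the 40 group means of log2 CPM some members rose and fell together, as a description only, since groups share lines, untreated wells and sequencing. MAP1LC3B and ATG12 had a Pearson correlation of 0.92, SQSTM1 and GABARAPL1 0.89, and MAP1LC3B and GABARAPL1 0.81. WIPI1 stood apart from SQSTM1 (-0.08) and GABARAPL1 (0.10), and ATG16L1 ran against GABARAP (-0.75) and SQSTM1 (-0.69). Among 12331 genes with a mean of at least 5 CPM, the pattern of MAP1LC3B was most like that of RIOK3 (0.970), BTG1 (0.961) and MXD1 (0.958). WIPI1 was most like PLPP5 (0.966), SLC33A1 (0.952) and NUCB2 (0.949), GABARAPL1 like ZNF468 (0.964), IFRD1 (0.950) and DCP1A (0.949), and SQSTM1 like PAX8 (0.955), RERG (0.951) and HSPB8 (0.950). ATG12 was most like RIOK3 (0.931), followed by MAP1LC3B itself (0.919) and TOM1 (0.917). ATG16L1 was most like ZNF142 (0.960), DMPK (0.939) and MTERF4 (0.937), and GABARAP like UFC1 (0.923), CRIPT (0.919) and RP11-356J5.12 (0.915). ULK1 was most like KANK2 (0.909), HS6ST1 (0.904) and MEGF9 (0.885), ATG5 like FGF21 (0.885), MARK3 (0.857) and LINC01518 (0.855), and NBR1 like FBXO8 (0.854), KIAA2026 (0.849) and TTC33 (0.842).

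A list of 55 other autophagy genes was set beside the 10 members. With dimerizer in Dmr-PERK cells 27 rose and 14 fell (median log2 fold change 0.08, against 0.31 over the members), where 27.5% of all genes were called higher and 27.7% lower, a split that became 21 and 22 with upper-quartile scaling. The highest were EPG5, which tethers autophagosomes to lysosomes (0.86 ± 0.05, at 154 CPM, against 85.3 CPM in untreated wells), ATG101, a subunit of the ULK1 complex (0.72 ± 0.03), and WDR45, a WIPI protein (0.67 ± 0.03). The lowest were VMP1, an ER protein of membrane supply (-0.47 ± 0.02), the lysosomal protease CTSB (-0.39 ± 0.02) and PIK3R4, a subunit of the PI3-kinase complex (-0.38 ± 0.03). Of the other genes of initiation, RB1CC1, a subunit of the ULK1 complex like ATG101, also rose with dimerizer (0.30 ± 0.03). ATG13, another subunit, had 0.07 ± 0.02 and turned to -0.01 with upper-quartile factors, and ULK2, a kinase related to ULK1, had 0.16 ± 0.05 and turned to -0.01 on TPM, so no direction is given for them. Of the other Atg8 genes, GABARAPL2 fell slightly with dimerizer (-0.15 ± 0.03) and rose with arsenite (0.77 ± 0.03).

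With thapsigargin in Dmr-PERK cells 30 of the 55 rose and 19 fell (median 0.21), with 30.9% of all genes called higher and 32.2% lower. TMEM41B, which moves lipid between membrane leaflets at the ER, rose most (1.75 ± 0.02, at 124 CPM, against 36.6 CPM untreated), then CCPG1, a receptor for autophagy of the ER (1.32 ± 0.03), and NRBF2, a regulator of the PI3-kinase complex (1.06 ± 0.03), and the same 3 led in Parental cells (1.91, 1.43 and 1.18). CTSB fell most in both lines, to 241 CPM in Dmr-PERK thapsigargin wells, against 445 CPM untreated (-0.93 ± 0.02). With arsenite in Dmr-PERK cells 35 rose and 16 fell (median 0.24), or 28 and 22 with library totals alone and 40 and 13 with upper-quartile factors, with 44.4% of all genes called higher and 39.2% lower. RAB7A, the GTPase of late endosomes and lysosomes, rose to 759.9 CPM, against 153 CPM untreated (2.10 ± 0.02), and ATG4A (1.53 ± 0.06) and PLEKHM1 (1.47 ± 0.03) followed. ATG16L2, the paralog of ATG16L1, fell to 9.30 CPM, against 44.7 CPM untreated (-2.54 ± 0.04), and PIK3R4 (-1.52 ± 0.04) and ATG4C (-1.0 ± 0.04) also fell. In Parental cells the dimerizer called 2 of the 55 (ATG4C 0.17 ± 0.03 and OPTN 0.07 ± 0.02), at a background of 0.582%, and called 1 with upper-quartile factors and 0 on TPM. Thapsigargin raised 32 and lowered 14 in Parental cells (30.1% of all genes higher and 35.0% lower), and arsenite raised 35 and lowered 18 (42.7% and 39.4%), or 29 and 22 with library totals alone and 25 and 24 on TPM. Of 8 transcription factors that act on autophagy genes, 7 rose with dimerizer in Dmr-PERK cells, ATF4, DDIT3, TFEB, TFE3, FOXO1, FOXO3 and NFE2L2, and MITF fell (-0.18 ± 0.03), at the same backgrounds of 27.5% higher and 27.7% lower. TFEB, the master factor of lysosomal genes, rose by 0.83 ± 0.06 with dimerizer, 0.41 ± 0.06 with thapsigargin and 0.32 ± 0.06 with arsenite.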

How the data were processed

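Libraries came from 120 U2OS wells in 40 groups of 3, with a directional kit (NEBNext Ultra II Directional) on a NovaSeq instrument, per the labels' protocols. Salmon 0.9.1, FastQC 0.11.5 and, as build, GRCh38 are listed in the submitters' processing notes, and the annotation, the strand setting of counting and the settings of each tool are not given in the sources used here. The authors deposited expected counts per gene (49.5% of non-zero entries are whole within 1e-05) and, separately, TPM, in which entries with a count of 0 hold a floor of 0.063122. All value columns matched 1 sample each, and 0 were left unmapped.

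Counts were rounded and tested with edgeR 4.0.16 (R 4.3.3): genes kept by its expression filter with a minimum count of 10 (26998 genes), TMM factors (0.839 to 1.169), and 1 quasi-likelihood fit of all 120 libraries with group means (dispersion 0.00142, 12.7 prior and 80 residual degrees of freedom). Within each comparison the Benjamini-Hochberg adjustment covered all genes tested, and calls needed an adjusted p below 0.05. Log2 fold changes are given ± a standard error approximated from the fit. Treated wells were set against time-matched untreated wells of their line, and 2 h wells against 0 h. CPM in the text use TMM library sizes. Alternatives were DESeq2 1.42.0, limma 3.58.1 on log2 TPM, other scalings, no filter, other windows and controls, and leaving out replicates. Leaving out replicate 3 of Dmr-PERK arsenite at 4 h was chosen after seeing the data. The code was tested on simulated counts.

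The members, lists and comparisons were chosen with earlier results of these data known. All 10 members enter the counts of every comparison over several times, but not every value is printed. Single times are given where they add to it. Other autophagy genes named are the 3 highest and 3 lowest called among those averaging 5 CPM or more in the higher of the compared groups, apart from ULK2, ATG13, RB1CC1, GABARAPL2 and the transcription factors, named after their values were seen. Genes most like a member are the 3 with the highest correlation over 40 group means. Positions on GRCh38 are from GENCODE 29 and promoters from RefSeq. By identifier, SQSTM1 (ENSG00000161011.19) lies at chr5:179806398-179838078 on the plus strand, NBR1 (ENSG00000188554.13) at chr17:43170481-43211689 (plus), MAP1LC3B (ENSG00000140941.12) at chr16:87383995-87404779 (plus), GABARAP (ENSG00000170296.9) at chr17:7240014-7242770 (minus), GABARAPL1 (ENSG00000139112.10) at chr12:10212458-10223130 (plus), WIPI1 (ENSG00000070540.12) at chr17:68420948-68457513 (minus), ULK1 (ENSG00000177169.9) at chr12:131894651-131923167 (plus), ATG12 (ENSG00000145782.12) at chr5:115828200-115841858 (minus) and ATG16L1 (ENSG00000085978.21) at chr2:233210051-233295674 (plus), and the identifier of ATG5 is ENSG00000057663.13.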

Additional observations from a re-analysis of the deposited data

Results flagged for a closer look

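The effect of an agent differed between the lines by the interaction test for 25 pairs of gene and agent, given here as the log2 fold change in Dmr-PERK cells minus that in Parental cells over 4 to 24 h. For the dimerizer the differences were 1.26 for MAP1LC3B, 0.61 for SQSTM1, 0.50 for GABARAPL1, 0.33 for NBR1, 0.29 for ATG5, 0.26 for ATG12, 0.21 for ATG16L1, 0.17 for WIPI1, -0.20 for ULK1 and -0.21 for GABARAP. For thapsigargin they were 0.21 for ULK1, 0.17 for ATG5, 0.11 for SQSTM1, -0.12 for ATG12, -0.21 for MAP1LC3B and -0.37 for WIPI1. For arsenite they were 0.32 for GABARAPL1, 0.26 for ATG5, 0.14 for SQSTM1, 0.14 for ULK1, -0.11 for NBR1, -0.16 for GABARAP, -0.19 for ATG12, -0.41 for ATG16L1 and -0.43 for MAP1LC3B. Of these, 6 were not called when a replicate was left out of every group: without replicate 1 SQSTM1 with thapsigargin (0.08, adjusted p 0.177), WIPI1 with dimerizer (0.14, 0.0776) and ULK1 with arsenite (0.11, 0.0733), and without replicate 2 NBR1 with arsenite (-0.06, 0.332), ATG5 with thapsigargin (0.11, 0.11) and ATG12 with thapsigargin (-0.10, 0.0651). The sign of the NBR1 difference with arsenite turned on TPM (0.01).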

How the results depend on the processing

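Of the results recomputed under other settings, 55 single-gene values that were called before or after turned sign, and the cause was not tested. DESeq2 gave 0.01 for WIPI1 in Dmr-PERK arsenite wells at 24 h, 0.00 and 0.03 for ULK1 at 16 h of arsenite in Dmr-PERK and Parental cells, and -0.04 for ATG12 in Dmr-PERK thapsigargin minus arsenite, and RLE factors gave the same 0.01, 0.00, 0.03 and -0.04. Upper-quartile factors gave 0.14 for NBR1 in Dmr-PERK arsenite wells at 8 h, -0.15, -0.09 and -0.11 for NBR1 in Dmr-PERK dimerizer minus arsenite and in Dmr-PERK and Parental thapsigargin minus arsenite, 0.18 for WIPI1 in Dmr-PERK arsenite wells at 24 h, 0.07 for ULK1 in Dmr-PERK arsenite wells over 4 to 24 h and 0.18 at 16 h (0.22 in Parental), -0.19 for ATG12 in Dmr-PERK thapsigargin minus arsenite and 0.10 for ATG16L1 in Parental arsenite wells at 16 h. Library totals alone gave -0.04 and -0.09 for WIPI1 in Dmr-PERK and Parental arsenite wells, 0.15 and 0.06 for WIPI1 and ULK1 in Dmr-PERK dimerizer minus arsenite, -0.12 for ATG5 in Parental arsenite wells at 24 h, 0.06 and 0.04 for ATG5 in Dmr-PERK and Parental thapsigargin minus arsenite and 0.09 for ATG12 in the Parental one. Limma on log2(TPM + 1), with log2(TPM + 0.1) in second place, gave -0.23 and -0.24 for NBR1 in Parental arsenite wells at 24 h, 0.01 and 0.01 for the line difference of NBR1 with arsenite, -0.14 and -0.14 for WIPI1 in Dmr-PERK arsenite wells, -0.31 and -0.33 in Parental ones, and 0.20 and 0.21 for WIPI1 in Dmr-PERK dimerizer minus arsenite. The same pair gave 0.10 and 0.11 for ULK1 at 4 h of dimerizer in Dmr-PERK cells, -0.05 and -0.06 for ATG5 at 16 h and -0.36 and -0.38 at 24 h of arsenite in Parental cells, 0.18 and 0.18 for ATG5 in Dmr-PERK thapsigargin minus arsenite, 0.21 and 0.22 in the Parental comparison, 0.10 and 0.10 for ATG12 there, and -0.05 and -0.06 for ATG16L1 in Dmr-PERK dimerizer minus thapsigargin. A mean over 8 to 24 h gave 0.09 for GABARAP with thapsigargin in Dmr-PERK cells. With untreated 4 h wells as the control of 2 h, ULK1 had 0.39 with dimerizer and 0.36 with thapsigargin, and ATG16L1 -0.17 and -0.00, in Parental cells. The count of called member and time tests with dimerizer in Parental cells was 0, and became 1 with DESeq2, 1 with upper-quartile factors, 1 when the lines were fitted apart, 1 without Dmr-PERK arsenite 4 h replicate 3 and 5 with that other 2 h control. The other counts of calls stayed within 1.5 times in all 398 recomputations. Of the other single values 7048 kept their side of the threshold, 210 lost their call and 77 gained one. Among the 7048, 112 were uncalled values whose sign changed, and tests of change with time have no direction. Leaving out replicates turned no called sign, and lost 1 of 49 calls over 4 to 24 h, 29 of 215 at single times, 6 of 25 line differences, 1 of 9 differences of untreated lines, 3 of 36 between agents, 3 of 46 changes of effect with time and 2 of 19 of untreated wells over time. Replicate numbers did not pair the wells (correlation of deviations from -0.03 to 0.06 over 72 pairs), and a fit with the replicate block changed 0 calls of 520 and moved no value by more than 0.01. The lowest estimated count of a member in a library was 159 (WIPI1). Depth, the 3 wells of a group and the scaling of libraries were not compared as limits.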
